A study of Mus musculus with 10 samples.

Results

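Genes of the unfolded protein response were examined in the lungs of mice that lack Bpifb1, a gene for a secreted protein of the airway lining. The 10 genes were Hspa5, Calr, Sdf2l1, Dnajb9, Herpud1, Xbp1, Atf4, Ddit3, Trib3 and Chac1, taken by symbol from the 47333 gene identifiers of the count table. Each symbol matched 1 identifier, and all 10 genes were among the 18024 tested. RNA came from the right middle lung lobe of 10 untreated mice of the C57BL/6J background, aged 12 weeks. Of these, 5 were labelled KO for Bpifb1 and 5 wild type (WT), and cages held both genotypes. The labels do not describe the KO allele. By label, the KO group held 1 male (replicate 1) and 4 females, and the WT group 2 males (replicates 2 and 3) and 3 females. None of the 10 genes differed between KO and WT lungs beyond the spread between mice, and 2 of them, Hspa5 and Calr, were higher in the 3 mice labelled male than in the 7 labelled female. KO replicate 5, labelled female, had RNA of the X-linked gene Xist at the level of the males. It was the lowest of all mice in both Hspa5 and Calr, so the result for sex depends on its label.

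The unfolded protein response adjusts the endoplasmic reticulum to its load of new proteins. Its sensors are IRE1, which splices the messenger RNA of Xbp1, ATF6, which is cleaved to a transcription factor, and PERK, which phosphorylates the initiation factor eIF2alpha and so favours translation of Atf4. Their targets include chaperones, parts of the degradation machinery of the endoplasmic reticulum and, through ATF4, the factor CHOP encoded by Ddit3. In the lung, cells that secrete much protein, such as alveolar type 2, club, mucous and plasma cells, depend on this system. Gene counts cannot tell spliced from unspliced Xbp1, and translation of Atf4 is not measured by RNA.

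The promoters of 4 members are shown because they hold the response elements known from this pathway, and because Hspa5 and Calr are the members that differed between the sexes. Each sequence is the 250 bases before the RefSeq start of the gene (build GRCm38.p6), written 5′ to 3′ on the gene's strand. Capitals mark matches, on either strand, to the motifs spelled out after the sequences.
Hspa5 (chr2:34771840-34772089, plus strand): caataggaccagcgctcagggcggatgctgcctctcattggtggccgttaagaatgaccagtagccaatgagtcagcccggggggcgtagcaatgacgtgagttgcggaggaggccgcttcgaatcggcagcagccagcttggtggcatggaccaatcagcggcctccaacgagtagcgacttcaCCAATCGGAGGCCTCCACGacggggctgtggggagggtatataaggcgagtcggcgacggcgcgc
Calr (chr8:84846932-84847181, minus strand): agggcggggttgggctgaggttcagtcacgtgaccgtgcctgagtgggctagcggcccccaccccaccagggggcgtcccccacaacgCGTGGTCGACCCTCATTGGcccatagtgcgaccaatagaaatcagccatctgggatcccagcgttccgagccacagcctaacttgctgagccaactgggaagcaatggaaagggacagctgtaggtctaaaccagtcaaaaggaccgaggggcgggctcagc
Herpud1 (chr8:94386179-94386428, plus strand): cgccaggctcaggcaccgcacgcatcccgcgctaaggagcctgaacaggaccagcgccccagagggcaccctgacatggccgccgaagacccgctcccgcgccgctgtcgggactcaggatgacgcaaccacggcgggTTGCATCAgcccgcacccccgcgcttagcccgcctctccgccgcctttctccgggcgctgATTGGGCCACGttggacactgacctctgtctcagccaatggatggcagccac
Chac1 (chr2:119350992-119351241, plus strand): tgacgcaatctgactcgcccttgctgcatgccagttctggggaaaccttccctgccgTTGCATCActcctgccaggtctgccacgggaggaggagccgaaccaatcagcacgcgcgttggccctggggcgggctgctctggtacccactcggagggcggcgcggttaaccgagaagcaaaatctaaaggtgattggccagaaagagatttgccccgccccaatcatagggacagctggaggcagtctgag

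The endoplasmic reticulum stress element, searched as CCAAT and CCACG with 9 bases between them, matched once in Hspa5, from 65 to 47 bases before the start, and once in Calr, on the opposite strand from 162 to 144 bases before it. It occurred in 0.113% of all 32851 promoter windows of this length. Its second form, ATTGG and CCACG with 1 base between them, matched in Herpud1 (52 to 42 bases before the start) and in 0.0304% of all windows. The composite site for C/EBP and ATF factors, searched as TGATGNAA, matched in Herpud1 and Chac1 and in 3.45% of all windows. The element TGACGTGG (0.563% of all windows) and a heat shock element, searched as GAA, TTC and GAA with 2 bases between neighbours (0.466%), matched in none of the 10 members within these 250 bases. A match describes letters only, and no match says nothing of a factor's binding.

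The libraries held 21357450 to 28321313 counts per mouse, and exact two-sided permutation tests of the totals gave p 0.8333 for genotype and 0.9417 for sex. Levels are given in CPM, a gene's count scaled to the size of its library. Bpifb1 measured 28.1 to 79.6 CPM in WT and 0.217 to 1.26 CPM in KO mice, as the genotype labels say. Xist, the X-linked RNA that marks a pair of X chromosomes, was at 1.29 to 1.73 CPM in males, against 273.7 to 407 CPM in 6 females. KO replicate 5, labelled female, had 1.78 CPM of Xist and so went against its label. Males and females below are the mice so labelled, 3 and 7, and the main calls for sex are also given without this mouse. The labels name neither litters nor sequencing batches, and p-values rest on the spread between these mice.

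Per length of exon, the chaperone Calr was the most abundant member, at 172.5 ± 20.9 CPM per kilobase (SD, n = 10). Hspa5 followed at 120.1 ± 25.4 and Herpud1 at 108.4 ± 15.6, and Hspa5 exceeded Herpud1 in 8 of the 10 mice. Xbp1 (72.2 ± 9.10 CPM per kilobase) and Atf4 (66.1 ± 5.52) came next, with Xbp1 above Atf4 in 8 mice. Dnajb9 (23.3 ± 3.53) lay above Sdf2l1 (19.1 ± 5.06) in 9 mice, and Sdf2l1 above Ddit3 (14.8 ± 3.14) in all 10, though both pairs had overlapping ranges. Trib3 (3.78 ± 0.50 CPM per kilobase) and Chac1 (1.80 ± 0.33) were the least abundant, and the ranges of Ddit3, Trib3 and Chac1 did not overlap one another. These genes, which ATF4 and CHOP induce under stress, had from 162 to 242 counts per mouse for Trib3 and from 53 to 90 for Chac1.

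Between the genotypes 0 of the 10 genes passed edgeR's quasi-likelihood test with sex as a covariate. At an adjusted p under 0.05 stood 0.0222% of all tested genes (0.00555% higher and 0.0166% lower in KO). No member had an unadjusted p under 0.05, where 17% of all tested genes had. The DESeq2 Wald test and limma-voom also called 0 members, and DESeq2 called 1.92% of all genes. The log2 fold changes of KO against WT ran from -0.15 to 0.10, 4 of the 10 above 0 (49.3% of all genes), with a median of -0.01 (-0.003 over all genes). No CPM range of a member was separate between the genotypes (1.88% of all genes).

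Hspa5 (chromosome 2, 34771970 to 34777547, plus strand) encodes BiP, the main Hsp70 chaperone of the endoplasmic reticulum, which also holds the sensors inactive. It measured 655, 417, 478, 485 and 403 CPM in KO replicates 1 to 5 and 465, 716, 581, 467 and 411 CPM in WT replicates 1 to 5. The highest values in each genotype were those of the males, and the females of both genotypes overlapped. Its log2 fold change of KO against WT was 0.00 (95% interval -0.16 to 0.16, SE 0.08, adjusted p 0.997 in edgeR).

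Calr (chromosome 8, 84841850 to 84846934, minus strand) encodes calreticulin, a calcium-binding chaperone for glycoproteins. KO replicates 1 to 5 measured 573.5, 441.5, 491, 489.8 and 422 CPM, and WT replicates 1 to 5 measured 471, 599, 560.4, 467 and 452 CPM. The groups overlapped, again with the males on top, and the log2 fold change of KO against WT was -0.01 (95% interval -0.13 to 0.11, SE 0.06, adjusted p 0.953 in edgeR).

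Sdf2l1 (chromosome 16, 17130138 to 17132383, minus strand) encodes a luminal protein found with BiP and its cochaperones. It ranged from 16.1 to 25.4 CPM in KO and from 16.9 to 35.02 CPM in WT mice (log2 fold change -0.03, adjusted p 0.938 in edgeR, SE 0.14). Dnajb9 (chromosome 12, 44205559 to 44210326, minus strand), a J-domain cochaperone of BiP, ranged from 52.1 to 80.2 CPM in KO and from 51.0 to 69.0 CPM in WT mice (log2 fold change 0.05, adjusted p 0.789 in edgeR, SE 0.08). Herpud1 (chromosome 8, 94386438 to 94395377, plus strand) encodes a membrane protein of the degradation machinery. It ranged from 216.5 to 295.9 CPM in KO and from 193.9 to 322 CPM in WT mice (log2 fold change 0.03, adjusted p 0.911 in edgeR, SE 0.09). In these 3 genes the KO and WT ranges overlapped. Herpud1 overlaps the antisense gene Gm15890, which held 224 counts over all mice.

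Of the transcription factors, Xbp1 (chromosome 11, 5520659 to 5525893, plus strand) measured 255, 193, 246, 229.8 and 194 CPM in KO and 236, 291, 248, 241 and 211 CPM in WT replicates 1 to 5. Its log2 fold change was -0.09 (adjusted p 0.604 in edgeR, SE 0.08), with overlapping groups. Atf4 (chromosome 15, 80255184 to 80257541, plus strand) measured 164, 151, 166, 155 and 147 CPM in KO and 155, 182.5, 156, 145.5 and 135 CPM in WT replicates 1 to 5. It varied least of the 10 genes over the mice, with a coefficient of variation of 8.34%, and its log2 fold change was 0.05 (adjusted p 0.704 in edgeR, SE 0.06). Ddit3 (chromosome 10, 127290774 to 127296288, plus strand), which encodes the stress factor CHOP, measured 33.1, 20.9, 23.2, 23.9 and 18.2 CPM in KO and 26.0, 35.2, 27.7, 24.8 and 21.1 CPM in WT replicates 1 to 5. Its log2 fold change was -0.08 (adjusted p 0.695 in edgeR, SE 0.10). Ddit3 overlaps Mars on the other strand, and whether counting used strand is not given in the sources used here. Mars held 11424 counts over all mice, and Ddit3 461 to 841 per mouse. Another annotated gene of the symbol Ddit3 overlaps it on the same strand and was not among the identifiers of the count table.

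Trib3 (chromosome 2, 152337422 to 152344032, minus strand) encodes a pseudokinase that ATF4 and CHOP induce. It measured 7.87, 6.84, 7.53, 8.42 and 6.99 CPM in KO and 8.49, 10.6, 7.75, 7.43 and 8.36 CPM in WT replicates 1 to 5. Its change was the farthest from 0 among the members, at -0.15 (adjusted p 0.473 in edgeR, SE 0.10), and it was within the spread between mice. Chac1 (chromosome 2, 119351229 to 119354381, plus strand), an ATF4 target whose enzyme degrades glutathione, ranged from 2.30 to 3.54 CPM in KO and from 2.38 to 3.74 CPM in WT mice. Its counts were the fewest of the members and its interval was the widest, from -0.27 to 0.46 around a log2 fold change of 0.10 (edgeR adjusted p 0.817).

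**Figure D1:**
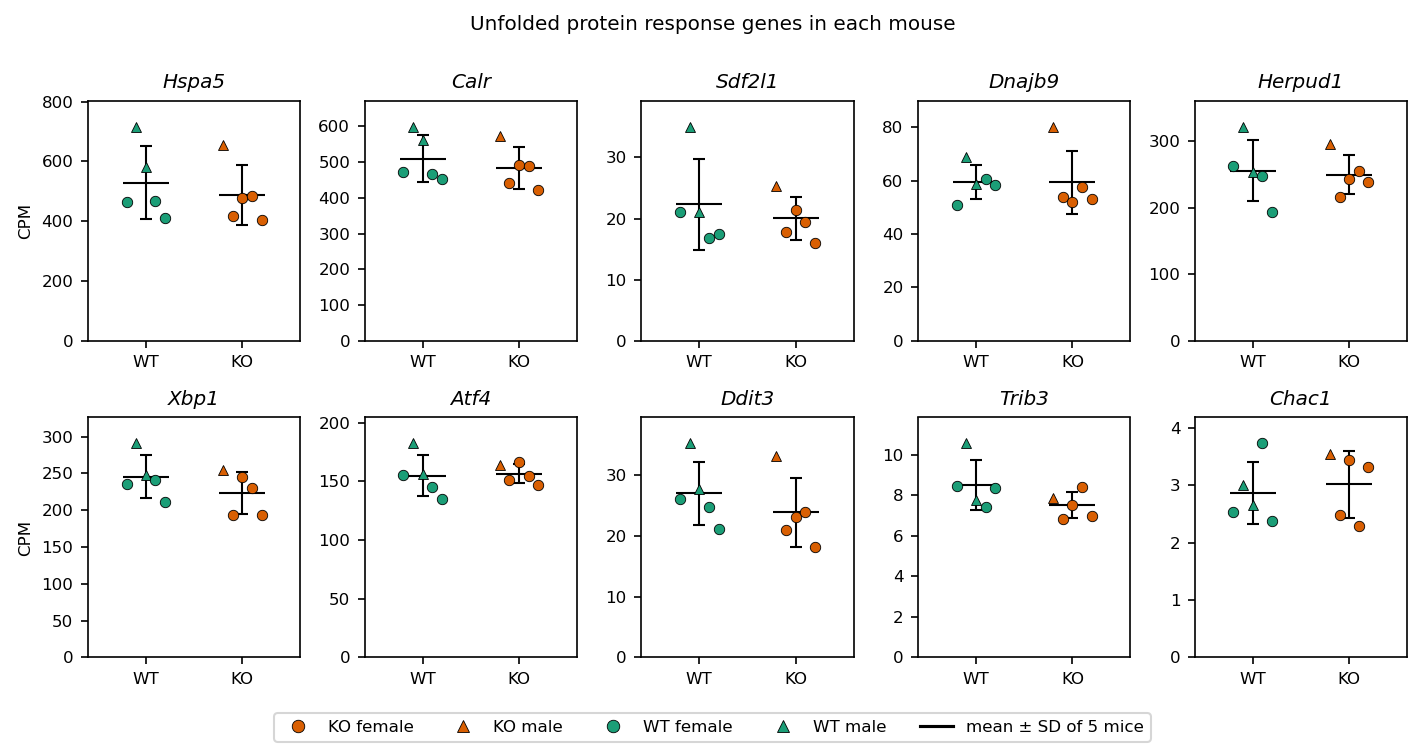
CPM (vertical axes, from 0) of each of the 10 genes in WT and KO mice, with circles for females, triangles for males and the mean ± SD of 5 mice as bars. WT and KO points overlap in each panel, and in Hspa5, Calr, Xbp1 and Ddit3 the 3 triangles lie above all circles, which include KO replicate 5.

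The other genes of the pathway were read from 6 lists. Between the genotypes edgeR called 0 of their 107 tested genes, and 9 had an unadjusted p under 0.05 and were higher in KO (8.92% of all tested genes) while 8 were lower (8.04%). In the list of sensors and membrane-bound factors the smallest p-values belonged to Mbtps2, Creb3 and Ern1. Mbtps2, a protease that releases ATF6, and Ern1, the gene of IRE1, had log2 fold changes of 0.19 (edgeR adjusted p 0.246) and 0.14 (edgeR adjusted p 0.274). Ern2 was too low to be tested. Of the 24 chaperones and folding enzymes, Cnpy2, Ppib and Fkbp11 had the smallest p-values, all with negative log2 fold changes (-0.21, -0.14 and -0.32, lowest edgeR adjusted p 0.168). Of 17 genes of degradation and 17 of translocation and export, Edem3 (log2 fold change 0.21, edgeR adjusted p 0.195) and the translocon subunit gene Ssr4 (-0.22, edgeR adjusted p 0.146) came first.

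Eif2ak2, the gene of the kinase PKR that phosphorylates eIF2alpha in response to double-stranded RNA, came nearest to the threshold among the eIF2alpha kinases. It measured 30.1, 34.1, 31.3, 31.3 and 31.8 CPM in KO and 25.0, 22.3, 27.2, 26.7 and 26.7 CPM in WT replicates 1 to 5. Each KO mouse lay above each WT mouse, and ranges were separate in 1 of the 6 genes of this list and in 1.88% of all tested genes. The log2 fold change was 0.29 (adjusted p 0.0999 in edgeR, SE 0.06). Eif2ak3, the gene of PERK, had a log2 fold change of -0.02 (edgeR adjusted p 0.904). Of the 32 tested ATF4-linked genes, Tnfrsf10b, a death receptor gene, measured 8.43, 5.95, 5.81, 5.51 and 5.97 CPM in KO and 4.49, 5.05, 4.82, 4.26 and 4.18 CPM in WT replicates 1 to 5. Its groups did not overlap either (1 of the 32 genes, 1.88% of all tested genes), with a log2 fold change of 0.53 (adjusted p 0.0767 in edgeR, SE 0.09). Atf3, a factor of the same arm and an immediate early gene, had a log2 fold change of 0.51 (adjusted p 0.121 in edgeR, SE 0.12). Tests of these lists as sets were not made, and their medians lay between -0.05 and 0.05.

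Males and females, as labelled, differed in 105 genes by edgeR (0.583% of all tested genes). Xist was not among them (log2 fold change -7.58, adjusted p 0.1115 in edgeR), with KO replicate 5 counted as a female. The count of 105 and the shares below therefore rest on the labels. Hspa5 and Calr were among the 81 that were higher in males (0.449%), and no member was among those lower in males (0.133%). All 10 members had a log2 fold change above 0 (48.3% of all genes), with a median of 0.31 (-0.006 over all genes). At an unadjusted p under 0.05 stood 8 members, all higher in males (7.33% of all tested genes, while 7.79% were lower). In Hspa5, Calr, Xbp1 and Ddit3 the 3 males lay above all 7 mice labelled female (2.26% of all genes, 4.81% in either direction). That separation rests on the labels, since KO replicate 5, with Xist at the level of the males, had the lowest Hspa5, Calr and Ddit3 of all mice (403.1, 422 and 18.2 CPM). Counted with the males, it would end the separation in all 4 genes.

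In Hspa5 the males measured 655, 716 and 581 CPM and the females 403, 465 and 485 CPM at their lowest, median and highest. The log2 fold change of males against females was 0.54 (95% interval 0.37 to 0.72, SE 0.08, adjusted p 0.0101 in edgeR). In Calr the males measured 573.5, 599 and 560.4 CPM and the females 422 to 491 CPM with a median of 467. Its log2 fold change was 0.32 (95% interval 0.19 to 0.45, SE 0.06, adjusted p 0.03 in edgeR). Among KO mice the male had 655 CPM of Hspa5, KO replicates 2 to 4 had 417 to 485 CPM and KO replicate 5 had 403 CPM, and among WT mice the males had 581 and 716 CPM and the 3 females 411 to 467 CPM. An interaction of sex with genotype was not fitted, as the KO group held 1 male.

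These calls depended on single mice more than the fold changes did. Without KO replicate 5, the mouse at odds with its label, Hspa5 (log2 fold change 0.53, edgeR adjusted p 0.0141) and Calr (0.30, edgeR adjusted p 0.0399) passed. The other 8 members did not pass then either, with log2 fold changes from 0.13 for Trib3 to 0.52 for Sdf2l1 and edgeR adjusted p-values from 0.0552 for Ddit3 upwards. That fit drops the mouse with the lowest Hspa5 and Calr. No fit counted KO replicate 5 as a male, so the calls under that label are not known. Without KO replicate 1, the KO male, 0 genes passed by edgeR, with 1919 at an unadjusted p under 0.05, and Hspa5 and Calr stood at 0.53 (edgeR adjusted p 0.114) and 0.32 (edgeR adjusted p 0.191). Calr also missed the threshold without KO replicate 2 or without WT replicate 1, 2, 3 or 5, with edgeR adjusted p-values from 0.0571 to 0.0987. Hspa5 passed in each of the 9 fits that kept KO replicate 1, with adjusted p-values up to 0.0439.

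The other members gave smaller or less certain differences between the sexes. Ddit3 had a log2 fold change of 0.49 (adjusted p 0.0568 in edgeR, SE 0.10), with 33.1, 35.2 and 27.7 CPM in males, against 18.2 to 26.0 CPM in females. Sdf2l1 had 0.54 (adjusted p 0.12 in edgeR, SE 0.14), with WT replicate 2 at 35.02 CPM, and without that mouse it was 0.33. Dnajb9 had 0.34 (adjusted p 0.0919 in edgeR, SE 0.08), with KO replicate 1 at 80.2 CPM, and without that mouse it was 0.17. Herpud1 had 0.30 (adjusted p 0.163 in edgeR, SE 0.10), Xbp1 0.24 (adjusted p 0.206 in edgeR, SE 0.08) and Atf4 0.17 (adjusted p 0.268 in edgeR, SE 0.07). The 2 least abundant members, Trib3 (0.14, adjusted p 0.598 in edgeR, SE 0.11) and Chac1 (0.11, adjusted p 0.829 in edgeR, SE 0.19), showed no difference beyond the spread between mice, and Chac1 was at -0.03 without KO replicate 1. Without WT replicate 2, Trib3 was at 0.01 and Atf4 at 0.10. The DESeq2 Wald test called 5 members, adding Ddit3, Dnajb9 and Sdf2l1, beside 2.42% of all genes. At an adjusted p under 0.1 edgeR called 4 members, adding Ddit3 and Dnajb9, beside 1.95% of all genes.

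**Figure D2:**
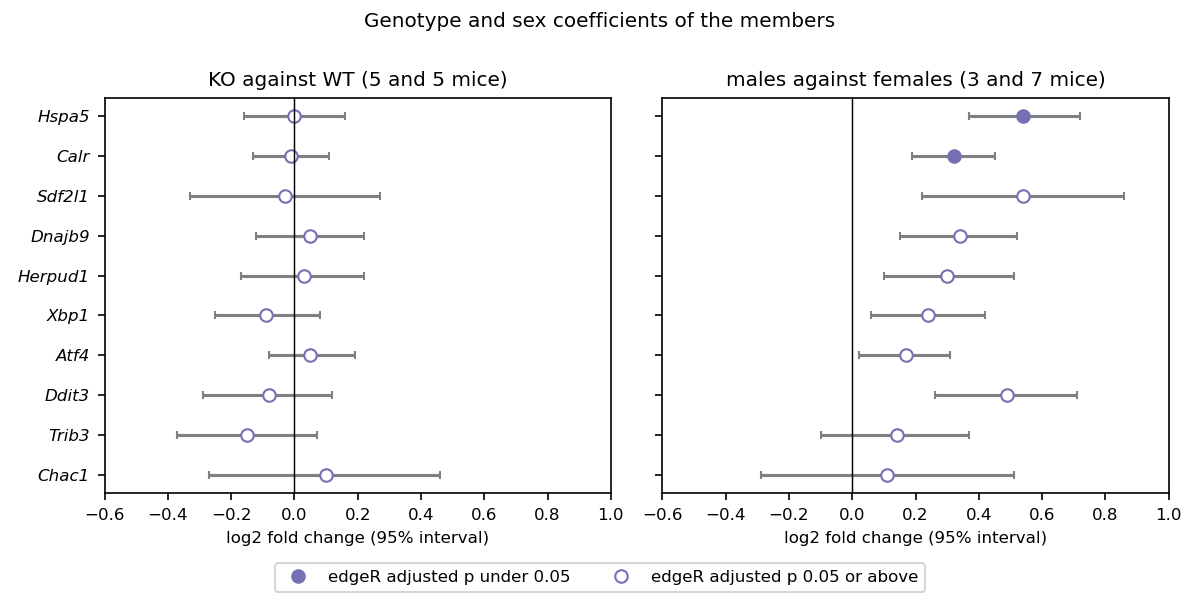
Log2 fold changes (horizontal axes) of the 10 genes with 95% intervals from the edgeR fit, KO against WT on the left and males against females on the right. All intervals on the left cross 0, while on the right the filled points, Hspa5 at 0.54 and Calr at 0.32, passed an adjusted p under 0.05.

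Of 24 other chaperones and folding enzymes of the endoplasmic reticulum, 2 passed, Hsp90b1 and Hyou1, both higher in males (0.449% of all tested genes), and 0 were called lower. At an unadjusted p under 0.05, 10 of the 24 were higher in males (7.33% of all tested genes) and 3 were lower (7.79%), Cnpy2 (-0.18), Fkbp11 (-0.35) and Dnajc10 (-0.14). Of the 24, 17 had a log2 fold change above 0, with a median of 0.12. Hsp90b1, which encodes the chaperone GRP94, measured 626, 582.5 and 572.5 CPM in males, against 441 to 496 CPM in females (log2 fold change 0.35, adjusted p 0.0148 in edgeR, SE 0.06). Hyou1, a large Hsp70 relative that acts on BiP, measured 154, 163.5 and 136 CPM in males, against 107 to 126 CPM in females (log2 fold change 0.38, adjusted p 0.0253 in edgeR, SE 0.07). Without KO replicate 5 both passed (edgeR adjusted p 0.019 and 0.0438). Without KO replicate 1 neither passed, with log2 fold changes of 0.31 for Hsp90b1 and 0.40 for Hyou1, and without KO replicate 2 or WT replicate 1, 2 or 5 only 1 of the list did. The disulfide isomerase gene Pdia4 had a log2 fold change of 0.29 (edgeR adjusted p 0.0552). In the degradation list 0 of 17 passed and 6 had an unadjusted p under 0.05, all higher in males (7.33% of all tested genes). They included Syvn1, a ubiquitin ligase gene (0.25, edgeR adjusted p 0.0749), and Ube2g2, a ubiquitin-conjugating enzyme gene (0.24, edgeR adjusted p 0.0743).

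Among 17 genes of translocation and export 0 passed, and the median log2 fold change of males against females was 0.05. Among 11 sensors and membrane-bound factors 0 passed, and the median was 0.00. At an unadjusted p under 0.05, 2 of the 11 were higher in males (7.33% of all tested genes) and 1 was lower (7.79%). The lower gene was Creb3l4 (-0.52, edgeR adjusted p 0.151). Among the 32 ATF4-linked genes 0 passed, with a median of 0.00. At an unadjusted p under 0.05, 5 of the 32 were higher in males (7.33% of all tested genes) and 2 were lower (7.79%). The smallest p of that list was again that of Tnfrsf10b (0.35, edgeR adjusted p 0.135), followed by Nupr1 (0.31, edgeR adjusted p 0.149). These lists were not tested against each other.

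Cytosolic heat shock genes, which belong to another stress response, were high in the same mice. Of 21 genes 14 passed between the sexes, all higher in males (0.449% of all tested genes), with a median log2 fold change of 0.79. Summed over the list, the males had 4255 to 5926 CPM and the females 2573 to 3577 CPM. Hspa1b, an inducible Hsp70 gene, measured 349.8, 198 and 74.3 CPM in KO replicate 1, WT replicate 2 and WT replicate 3, and 18.1 to 53.7 CPM in the females (log2 fold change 2.73, adjusted p 0.0111 in edgeR, SE 0.29). Hsp90ab1, an abundant cytosolic Hsp90 gene, measured 1948, 2156 and 1577 CPM in the same males and 878 to 1248 CPM in the females (log2 fold change 0.84, adjusted p 0.0058 in edgeR, SE 0.10). WT replicate 3, the male with the lowest Hspa5, also had the lowest values of these 2 genes among the males. The part of this response in the result for Hspa5 and Calr was not tested. Without KO replicate 5, 14 of the 21 passed. Without KO replicate 1, 0 passed, though the log2 fold changes were 0.87 for Hsp90ab1 and 2.57 for Hspa1b.

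**Figure D3:**
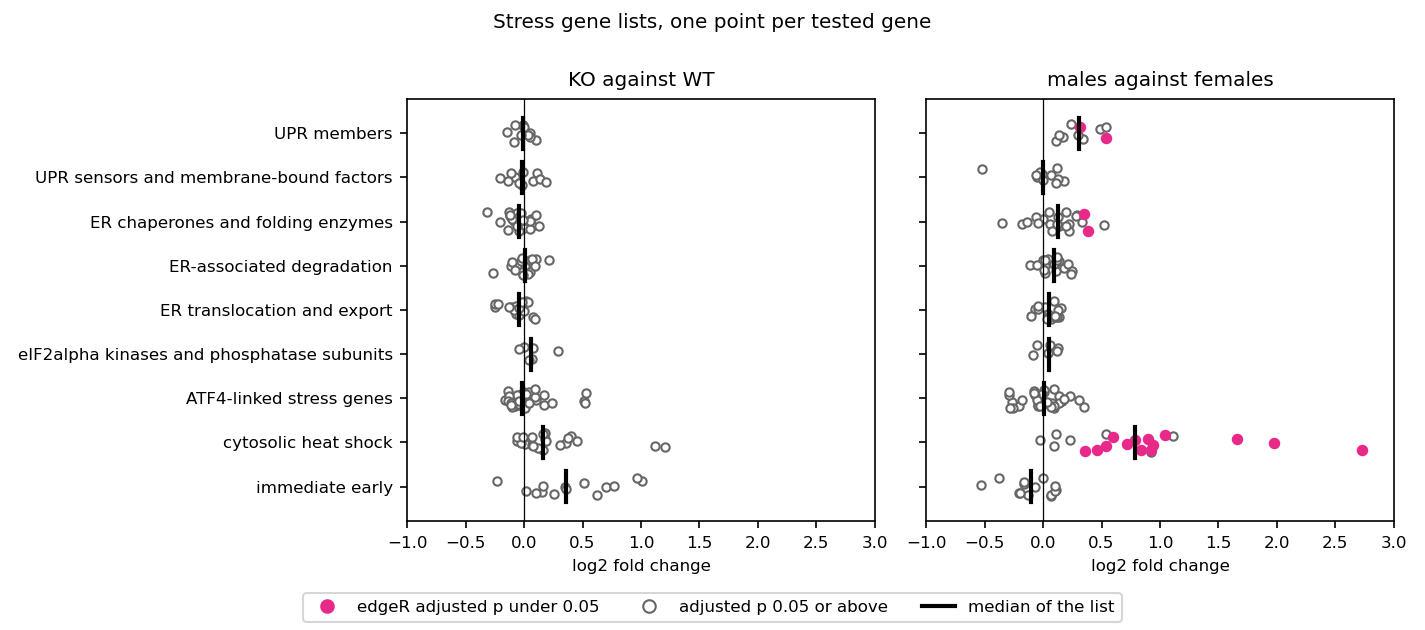
Log2 fold changes (horizontal axes) of each tested gene of 9 stress lists, KO against WT on the left and males against females on the right, with the list's median as a bar and genes at an adjusted p under 0.05 filled. No point is filled on the left, and on the right the filled points are 2 members, 2 other chaperones of the endoplasmic reticulum and 14 cytosolic heat shock genes.

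Marker genes of secretory and other cells were compared beside these results, since in whole tissue a change in the number of cells and a change of RNA per cell cannot be told apart. Between the sexes 1 of 6 club cell markers passed, Aldh1a1 (log2 fold change 0.34, edgeR adjusted p 0.024), which was higher in males (0.449% of all tested genes). All 6 had a log2 fold change above 0 (48.3% of all genes), with a median of 0.23. Of these, 4 were at an unadjusted p under 0.05 (7.33% of all tested genes). The list had a summed level of 27060 to 34480 CPM in males against 26180 to 30160 CPM in females. Scgb1a1 made up most of that sum and had a log2 fold change of 0.06 (edgeR adjusted p 0.788). Of 6 tested plasma cell markers 1 passed, Mzb1, which was lower in males (-0.58, edgeR adjusted p 0.0415, beside 0.133% of all tested genes). The summed levels were 387.9 to 423 CPM in males against 368 to 574 CPM in females. Of 7 alveolar type 2 markers 0 passed, with 23550 to 28710 CPM in males against 23550 to 29070 CPM in females. Of 6 alveolar type 1 markers 1 passed, Rtkn2, higher in males (0.33, edgeR adjusted p 0.0197, beside 0.449% of all tested genes), and of 8 goblet cell and gland markers 0 passed. No marker of these lists was at 0 in all mice, and the plasma cell marker Tnfrsf17 was too low to be tested. Of 6 neutrophil and 6 smooth muscle markers 0 passed, with medians of 0.22 and -0.20. In the ciliated, endothelial, fibroblast and alveolar macrophage lists 0 passed, with medians between -0.08 and 0.03. Of 6 lymphocyte markers 0 passed and 0 had a log2 fold change above 0 (48.3% of all genes), with a median of -0.21. The T cell genes Cd3d (-0.51, edgeR adjusted p 0.0608) and Cd3e (-0.29, edgeR adjusted p 0.374) were lower in each male than in each mouse labelled female. Ranges were separate in 4.81% of all genes in either direction. The fit without KO replicate 5 is not given for these T cell genes. Without KO replicate 5, Aldh1a1 (edgeR adjusted p 0.0423) and Rtkn2 (0.0339) passed and Mzb1 (0.0552) did not. Without KO replicate 1 none of the 3 passed, with log2 fold changes of 0.38 for Aldh1a1, 0.35 for Rtkn2 and -0.53 for Mzb1. The part of cell composition in the result was not tested. The share of counts from a ribosomal RNA gene was 1.17% in KO replicate 1, the lowest, 1.96% in WT replicate 3 and 5.3% in WT replicate 2, the highest. The mice labelled female had 2.3% to 3.66%. The part of this share in the result was not tested.

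Most members varied together from mouse to mouse. Pearson's r of log2 CPM over the 10 mice was above 0 in 44 of 45 pairs, with a median of 0.76, and 27 pairs had an adjusted permutation p under 0.05 over the 45 (18 pairs by Spearman's rho). The share among pairs of all tested genes was not computed, so these counts do not set the members apart from other genes. WT replicate 2 was the highest mouse in 8 members and KO replicate 5 the lowest in 4. WT replicate 2 also had the highest share of counts from the ribosomal RNA gene (5.3%), and the part of this in the covariation was not tested. Without WT replicate 2 the count of 27 pairs became 11, and without KO replicate 5 it became 23. The closest pair was Hspa5 and Calr, with r = 0.983 (permutation p 1.0e-05, the smallest that 100000 resamples can give, adjusted p 4.5e-04) and rho = 0.964 (permutation p 5.0e-05, adjusted p 0.0022). Without the 2 mice farthest from the median of Hspa5, KO replicate 1 and WT replicate 2, their r was 0.977. Hspa5 and Ddit3 followed with r = 0.958 (permutation p 4.0e-05, adjusted p 9.0e-04) and rho = 0.879 (permutation p 0.0016, adjusted p 0.0078), and r was 0.873 without the same 2 mice.

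The pairs with Trib3 and Chac1 are given as values, since no difference between correlations was tested. Trib3 passed with Sdf2l1, at r = 0.792 (permutation p 0.0133, adjusted p 0.0243; rho 0.552, permutation p 0.106, adjusted p 0.171), and r was 0.237 without KO replicate 5 and WT replicate 2. It also passed with Xbp1 (r = 0.726, permutation p 0.0165, adjusted p 0.0285; rho 0.491, permutation p 0.155, adjusted p 0.217) and with Ddit3 (r = 0.682, permutation p 0.0282, adjusted p 0.0471; rho 0.648, permutation p 0.0479, adjusted p 0.0937). Without the 2 mice farthest from the median of Xbp1 or Ddit3, r was 0.518 and 0.507. Hspa5 and Trib3 had r = 0.64 (permutation p 0.0448, adjusted p 0.0696) and rho = 0.503 (permutation p 0.144, adjusted p 0.211), and r was 0.304 without the 2 farthest mice. Hspa5 and Chac1 had r = 0.255 (permutation p 0.470, adjusted p 0.516) and rho = 0.236 (permutation p 0.515, adjusted p 0.565). Trib3 and Chac1 were the pair with a negative r, at -0.205 (permutation p 0.607, adjusted p 0.635; rho -0.321, permutation p 0.370, adjusted p 0.449). Of the genes downstream of ATF4, Ddit3 had r = 0.745 with Atf4 (permutation p 0.0133, adjusted p 0.0243; rho 0.661, permutation p 0.0428, adjusted p 0.0875), and 0.56 without WT replicates 2 and 5. Trib3 had r = 0.545 with Atf4 (permutation p 0.108, adjusted p 0.143; rho 0.406, permutation p 0.248, adjusted p 0.329). Chac1 had r = 0.265 with Atf4 (permutation p 0.469, adjusted p 0.516; rho 0.248, permutation p 0.492, adjusted p 0.565).

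Because the males were high in many members, the pairs were also compared among the 7 females alone, a choice made after seeing the data. There 0 of 45 pairs passed after adjustment, and the median r was 0.46. Hspa5 and Calr had r = 0.937 (permutation p 0.0016, adjusted p 0.0724) and rho = 0.893 (permutation p 0.0122, adjusted p 0.317). Hspa5 and Xbp1 had r = 0.907 (permutation p 0.019, adjusted p 0.171) and rho = 0.679 (permutation p 0.111, adjusted p 0.422). Hspa5 and Dnajb9, with r = 0.78 over all mice (permutation p 0.0093, adjusted p 0.021; rho 0.624, permutation p 0.0601, adjusted p 0.113), had r = 0.059 in females (permutation p 0.902, adjusted p 0.941; rho 0.036, permutation p 0.965, adjusted p 0.986). That relation rested on KO replicate 1 and WT replicate 2, without which r was 0.308. In the 6 females other than KO replicate 5, also chosen after seeing the data, 0 of 45 pairs passed and the median r was 0.405. Hspa5 and Calr had r = 0.925 there (permutation p 0.0166, adjusted p 0.374) and rho = 0.829 (permutation p 0.058, adjusted p 0.532). Ddit3 and Calr had r = 0.817 in the 7 females (permutation p 0.0254, adjusted p 0.191) and 0.607 in these 6 (permutation p 0.21, adjusted p 0.524). The other pairs of Hspa5, Calr, Xbp1 and Ddit3 had r from 0.798 to 0.864 in these 6.

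**Figure D4:**
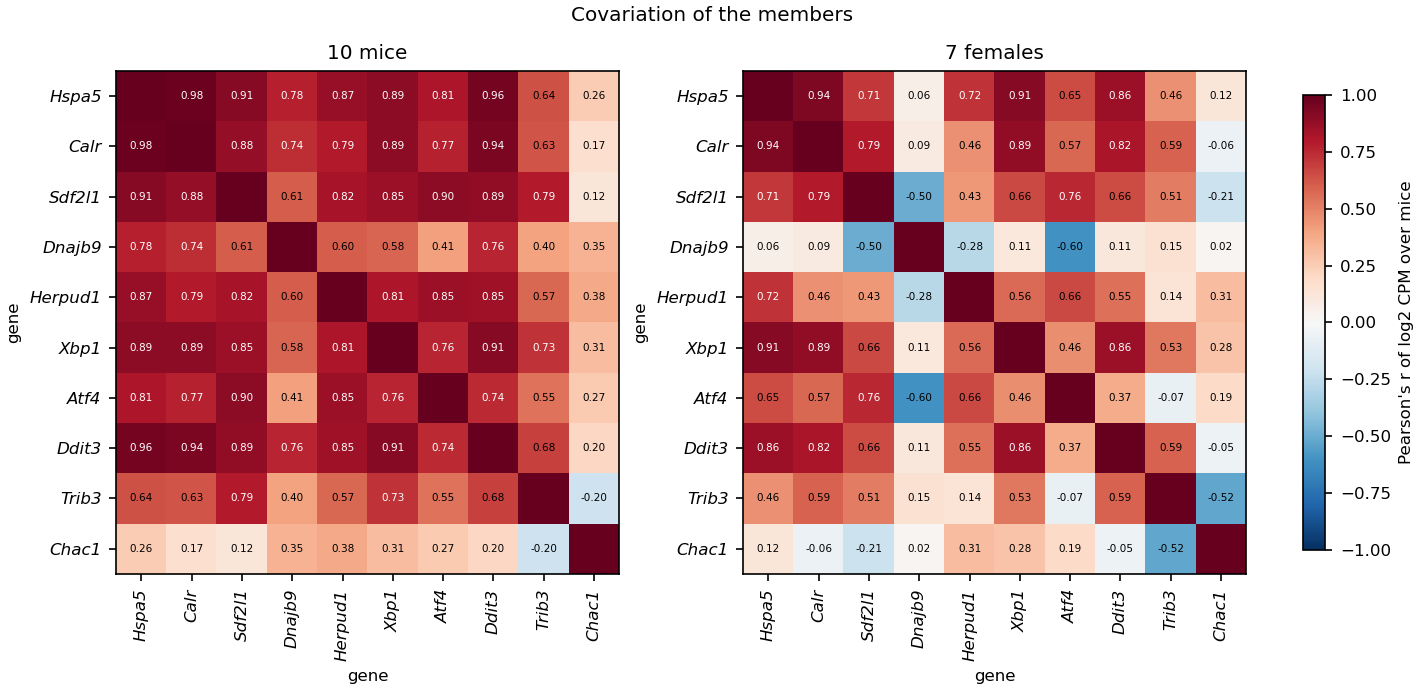
Pearson's r of log2 CPM for each pair of the 10 genes, over 10 mice on the left and over the 7 females on the right, on a colour scale from -1 to 1. Hspa5, Calr, Xbp1 and Ddit3 keep r of at least 0.817 with each other in both panels. In the 6 females other than KO replicate 5 (not drawn), the lowest r of these pairs was 0.607, for Ddit3 and Calr. Dnajb9 has r between -0.603 and 0.151 with the other members among the 7 females.

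Of all tested genes other than members, those most like Hspa5 over the 10 mice by Pearson's r of log2 CPM were Fkbp4 (0.981), Hsp90ab1 (0.977), Ube2g2 (0.976), Trip10 (0.973) and Pdia4 (0.973). Fkbp4 encodes an immunophilin that works with cytosolic Hsp90, and its log2 fold change of males against females was 0.62 (edgeR adjusted p 0.0262). Those most like Trib3 were Gsta4 (0.955), Sin3b (0.951), Lrrc42 (0.95), Sec23b (0.934) and the club cell gene Scgb1a1 (0.933). The log2 fold changes of these 5 genes between the sexes lay between 0.04 and 0.15, and no gene was in both sets. These genes were picked for their correlation, which is therefore a description without a test.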

How the data were processed

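Total RNA from lung was made into stranded mRNA libraries and read as single reads, per the labels' protocols. The authors deposited estimated counts per Ensembl gene, not scaled between mice. STAR 2.6.0, Salmon 0.9.1 and the builds mm10 and GRCm38 are named in the submitters' processing notes, with no role or order. The annotation, strand setting and filters are not given in the sources used here. Symbols, positions and exon lengths came from GENCODE M21 (GRCm38), which matched 47281 of 47333 identifiers, and all 10 members had a RefSeq promoter entry. Fractional values (over 0.01 from whole) made up 30.1% of those above 0, so genes with near-identical copies may gain or lose counts, and Calr has an annotated pseudogene.

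Counts were rounded and filtered with filterByExpr (minimum count 10, minimum total 15). Genotype and sex were tested in 1 additive model by edgeR 4.0.16 in R 4.3.3 (quasi-likelihood, robust, TMM scaling), two-sided, with Benjamini-Hochberg adjustment over 18024 genes. Standard errors were taken as the size of the log2 fold change over the root of F. CPM uses TMM-scaled totals, and log2 CPM a prior count of 2. Replicate numbers follow sample order. Scripts were tested on simulated data. The members and lists were chosen with earlier results of these data known. Genes named from a list are the 3 with the smallest p per comparison. Also named are the 5 genes most like Hspa5 and Trib3. Eif2ak3, Hspa1b, Ier3, Dnajc10 and the marker genes were picked with their values in view. The symbols Vimp and Mars1 had no match and were not analysed here, which does not mean that the genes lacked counts. Mars, named above beside Ddit3, was in the count table and was not read as a member of a list. Other settings used DESeq2 1.42.0 and limma 3.58.1, and 0 columns were left without a sample.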

Additional observations from a re-analysis of the deposited data

Results flagged for a closer look

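Dixon's test at the 95% level was applied to 30 sets of values, the KO mice, the WT mice and the 7 females for each of the 10 genes. It set 2 values apart, where about 1.5 would be by chance. Dnajb9, the cochaperone of BiP, was 80.19 CPM in KO replicate 1, the KO male, against 52.06 to 57.54 CPM in the 4 other KO mice. Sdf2l1, a luminal partner of BiP, was 35.02 CPM in WT replicate 2, a male, against 16.85 to 21.13 CPM in the 4 other WT mice.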

How the results depend on the processing

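No paired analysis was possible because the labels give no replicate number that the genotypes share. Between KO and WT 0 members passed in any of the 19 other settings, and their log2 fold changes stayed between -0.20 and 0.26. The 4 genes called between the genotypes became 60 with no filter on low counts, 346 by the DESeq2 Wald test, 2 by limma-voom, 57 at an adjusted p under 0.1, and 2 to 18 without single mice. The 105 genes called between the sexes became 199 with no filter, 41 with no genotype covariate, 436 with DESeq2, 351 with a limit of 0.1 on the adjusted p, and 0 to 195 without single mice (0 without KO replicate 1). Of the members, 2 were called between the sexes, against 5 with DESeq2, 4 with a limit of 0.1 on the adjusted p, and 0 to 4 without single mice. The 0 came without KO replicate 1 and the 4 without WT replicate 3. It became 1 without KO replicate 2 and without WT replicates 1, 2 and 5. Hspa5 passed in 16 of 17 alternatives, with log2 fold changes from 0.47 to 0.62, and Calr in 11 of 17, from 0.30 to 0.34. The 27 correlated pairs became 16 on residuals after the genotype and sex means, 0 in the 7 females alone and 0 in the 6 other than KO replicate 5 (both chosen after seeing the data), and 11 to 32 without single mice. The cause of these changes was not tested. Trib3 and Chac1 had the fewest counts of the members, 53 to 242 per mouse.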

Other observations

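Immediate early genes, which many stimuli switch on within minutes, leaned higher in KO lungs without passing the test. Of 14 such genes 13 had a log2 fold change above 0 in KO against WT (49.3% of all genes). At an unadjusted p under 0.05, 7 of the 14 were higher in KO (8.92% of all genes), while 1, Ier3, was lower (8.04%). Of the 14, 0 reached an adjusted p under 0.05 in edgeR. Nr4a1, an orphan nuclear receptor gene, measured 69.3 ± 19.1 CPM in the 5 KO and 32.3 ± 6.28 CPM in the 5 WT mice (mean ± SD, log2 fold change 0.97, adjusted p 0.091 in edgeR, SE 0.16). Btg2, an antiproliferative gene, had 168 ± 10.3 and 133.7 ± 17.2 CPM (log2 fold change 0.35, adjusted p 0.132 in edgeR, SE 0.09). Its ranges were separate, as in 2 of the 14 genes and 1.88% of all tested genes. Between the sexes 0 of the 14 passed, with a median log2 fold change of -0.10.

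Cytosolic heat shock genes gave 9 of 21 at an unadjusted p under 0.05 between the genotypes, all higher in KO (8.92% of all tested genes). After adjustment by edgeR 0 of the 21 passed. Dnajb4, a J-domain cochaperone gene, had a log2 fold change of 0.31 (adjusted p 0.0767 in edgeR, SE 0.05) and Hspa1a 1.21 (adjusted p 0.126 in edgeR, SE 0.24). Dnajb4 averaged 70.0 CPM in KO lungs (SD 11.0) against 59.2 in WT lungs (SD 7.08). Hspa1a averaged 44.2 CPM in KO lungs (SD 45.3) against 22.8 in WT lungs (SD 15.9). For Hspa1b these means were 106.7 (SD 136.1) and 68.12 (SD 75.85), with KO replicate 1 the highest mouse. The part of KO replicate 1 in these 9 genes was not tested, and KO replicate 5 was counted as a female. DESeq2 called 6 of the 21 (1.92% of all genes).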
